A study of Mus musculus with 8 samples.

Results

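The comparison described here asked what RNA the paternal chromosome makes between Snrpn and Ube3a once its Snrpn promoter is deleted. The arrays compared are 3 of the 8 in the study: 2 double deletions and 1 maternal deletion. All are total RNA of cerebral cortex from C57BL/6 mice at postnatal day 0 (P0). They were picked out by their titles. The maternal deletion (del s-u/+) has lost the span between Snrpn and Ube3a from its maternal chromosome and has an intact paternal chromosome. The double deletions carry the same maternal deletion and in addition lack the Snrpn promoter on the paternal chromosome. Within the span, therefore, the chromosome read is the paternal one in all 3 samples, whereas outside it both chromosomes are read, apart from whatever bases the promoter deletions remove. The labels name 2 promoter deletions, 0.9 and 4.8, with no unit. Replicate 1 is titled 0.9 and its genotype label says 4.8, and replicate 2 is titled 4.8 and its genotype label says 0.9. No value below is assigned to either promoter deletion, and neither of them has a replicate. The number of animals behind a sample and the bases that each promoter deletion removes are not given in the sources used here. Wild type (n = 2) and the same span deleted on the paternal chromosome (del +/s-u, n = 1) are cited as reference levels.

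Snrpn, which encodes a protein of the splicing machinery, and Ube3a, which encodes an E3 ubiquitin ligase, lie in an imprinted domain and are transcribed in opposite directions. Transcription that starts at Snrpn on the paternal chromosome runs through clusters of small nucleolar RNA genes and on across Ube3a, where it is antisense to the gene and is called Ube3a-ATS. In neurons the paternal Ube3a copy is silent while Ube3a-ATS is made, so the maternal copy supplies the protein, and its loss causes Angelman syndrome. Here plus-strand probes read Ube3a RNA and minus-strand probes read Snrpn and Ube3a-ATS. In the RefSeq annotation of build GRCm38.p6, 210 genes lie wholly between Ube3a and Snrpn, among them 17 named Snord116, which make box C/D small nucleolar RNAs. Going from Ube3a to Snrpn, the noncoding gene Ipw comes first, then the Snord116 genes, then Snord64.

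The starts annotated for Snrpn are shown because the double deletions are named for the loss of a Snrpn promoter. The sources used here do not say which of these starts, if any, either deletion covers. RefSeq gives 4 such windows on build GRCm38.p6, each from 250 bases before to 50 after a start, and all on the minus strand. Capitals mark ACGCATGCGT, the longest run of bases that all 4 windows share, which has 10 bases and reads the same on both strands. The first window is shared with Snurf and lies nearest to Ube3a. The last is shared with Snhg14, the gene name given to the long host transcript.
Snrpn/Snurf, chr7:60005150-60005449: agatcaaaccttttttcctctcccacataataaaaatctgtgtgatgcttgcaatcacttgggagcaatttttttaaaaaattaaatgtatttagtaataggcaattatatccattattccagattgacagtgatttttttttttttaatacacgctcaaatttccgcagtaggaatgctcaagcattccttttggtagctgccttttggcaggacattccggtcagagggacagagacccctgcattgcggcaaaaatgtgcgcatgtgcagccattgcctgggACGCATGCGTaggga
Snrpn, chr7:60047929-60048228: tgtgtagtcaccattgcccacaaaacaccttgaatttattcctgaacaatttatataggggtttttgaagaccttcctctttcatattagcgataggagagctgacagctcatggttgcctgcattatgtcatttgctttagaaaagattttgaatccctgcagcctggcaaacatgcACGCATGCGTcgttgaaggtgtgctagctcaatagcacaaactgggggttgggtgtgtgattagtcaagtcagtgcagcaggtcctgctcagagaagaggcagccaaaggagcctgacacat
Snrpn, chr7:60140176-60140475: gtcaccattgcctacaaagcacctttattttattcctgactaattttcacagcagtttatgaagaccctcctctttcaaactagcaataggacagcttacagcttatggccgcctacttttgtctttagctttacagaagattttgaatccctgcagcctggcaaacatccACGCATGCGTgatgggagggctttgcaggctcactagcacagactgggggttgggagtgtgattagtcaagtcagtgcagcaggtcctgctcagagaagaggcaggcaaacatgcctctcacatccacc
Snhg14/Snrpn, chr7:60450128-60450427: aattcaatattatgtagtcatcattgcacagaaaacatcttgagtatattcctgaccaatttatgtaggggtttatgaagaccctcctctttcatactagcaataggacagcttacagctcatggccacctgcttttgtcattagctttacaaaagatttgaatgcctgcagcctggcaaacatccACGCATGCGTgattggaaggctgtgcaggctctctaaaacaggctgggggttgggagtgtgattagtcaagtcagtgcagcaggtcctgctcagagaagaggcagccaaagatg
Its presence in all 4 windows follows from how the run was picked, and it stands once in each. It stands in 35 of all 32851 listed promoters of that length (0.107%). The 35 can include these 4 windows and promoters listed under several gene names. The share is therefore not a test of enrichment. The 3 windows farther from Ube3a share a run of 49 identical bases. A match is a description of the letters and not of a bound factor.

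The array tiles both strands of chromosome 7 from position 65890585 to 67700765 (build mm9) with 50496 probes and has 3338 probes elsewhere in the genome. Values are red median intensities, background-corrected, on the log2 scale and set against the 75th percentile of the probes elsewhere, so 0 is that percentile. The median red intensity was 161 on the array of the maternal deletion, 132 and 153 on those of the double deletions, and 86.1 to 88.4% of spots were well above background on them. The positions given from here on are on build mm9 and cannot be set against the GRCm38.p6 windows above. The files name no genes, so the deletion ends were placed where the paternal deletion parts from wild type, at 66526901 and 67147709. The ends of Ube3a were placed at 66484145 and 66570714 with the help of further wild-type arrays of polyA RNA. The lower one is where the plus strand of wild-type total RNA changes against polyA RNA. The upper one is where polyA RNA itself changes. The lower end of the deletion therefore cuts Ube3a into a 5′ part that is kept and a 3′ part that is deleted. Exons, introns and cell type markers could not be assigned to probes.

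All 3 samples had a raised plus strand just above the span. Plus-strand RNA of the first 152.5 kb above the span was at 1.41 in the maternal deletion, 1.81 in replicate 1 and 1.45 in replicate 2. The wild types were at 0.26 each and the paternal deletion at 0.95. Thus the 3 samples with the maternal deletion lay above every other total RNA array there. The paternal deletion, a single array, was above wild type too, so the rise as such is not particular to the maternal deletion.

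Minus-strand RNA from the paternal chromosome was lower in both double deletions than in the maternal deletion over nearly the whole deleted span, and part of it remained in both. Averaged over the 7147 tested minus-strand probes of the span, the level was 3.69 in the maternal deletion, 1.26 in double-deletion replicate 1 and 2.70 in replicate 2. The wild types were at 3.94 and 3.85 and the paternal deletion, which has no paternal copy of the span, at 0.36. Both double deletions therefore lay below the maternal deletion and the wild types and above the paternal deletion. In bulk tissue, fewer cells that make the RNA and less RNA per cell cannot be told apart.

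The difference from the maternal deletion was -2.43 in replicate 1 and -0.99 in replicate 2, both larger than the 0.09 between the wild types. With the double deletions as 1 group, limma gave a difference of -1.71 ± 0.70 (SE, n = 2 against 1; 95% interval -3.87 to 0.45). The adjusted p was 0.263, and replicate 1 minus replicate 2 was -1.43. The labels give the replicates different promoter deletions, so that gap may hold a difference of genotype as well as of animals. With each double deletion as its own group the mean difference is the same, and the spread comes from the wild types alone. Limma then gave all 24 regions the same SE of 0.065, shared over the regions of these arrays. The p-values with separate groups, here and below, rest on that shared spread. They do not measure the spread between animals in a region. A permutation of 2 samples against 1 cannot give a p below 0.333, so no exact test could reach 0.05.

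Over all 356 bins of 10 kb, both replicates were at least 1 log2 unit below the maternal deletion in 39 (11%) and at least 1 above it in 0. All 39 were minus-strand bins, 37 of them within the span and 2 directly below it. Limma with the double deletions as 1 group called 0 of 356 bins at an adjusted p of 0.05, and 24 had an unadjusted p under 0.05. As separate groups it called 65 bins lower (18.3%) and 31 higher (8.71%), and 57 of the 58 minus-strand bins of the span were among the lower ones. Replicate 1 was below replicate 2 in all 58 of these bins. That order was not particular to them. It held in 111 of the 120 minus-strand bins outside the span and in 54 of the 58 plus-strand bins of the span. On the plus strand outside the span it held in 49 of 120.

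**Figure D1:**
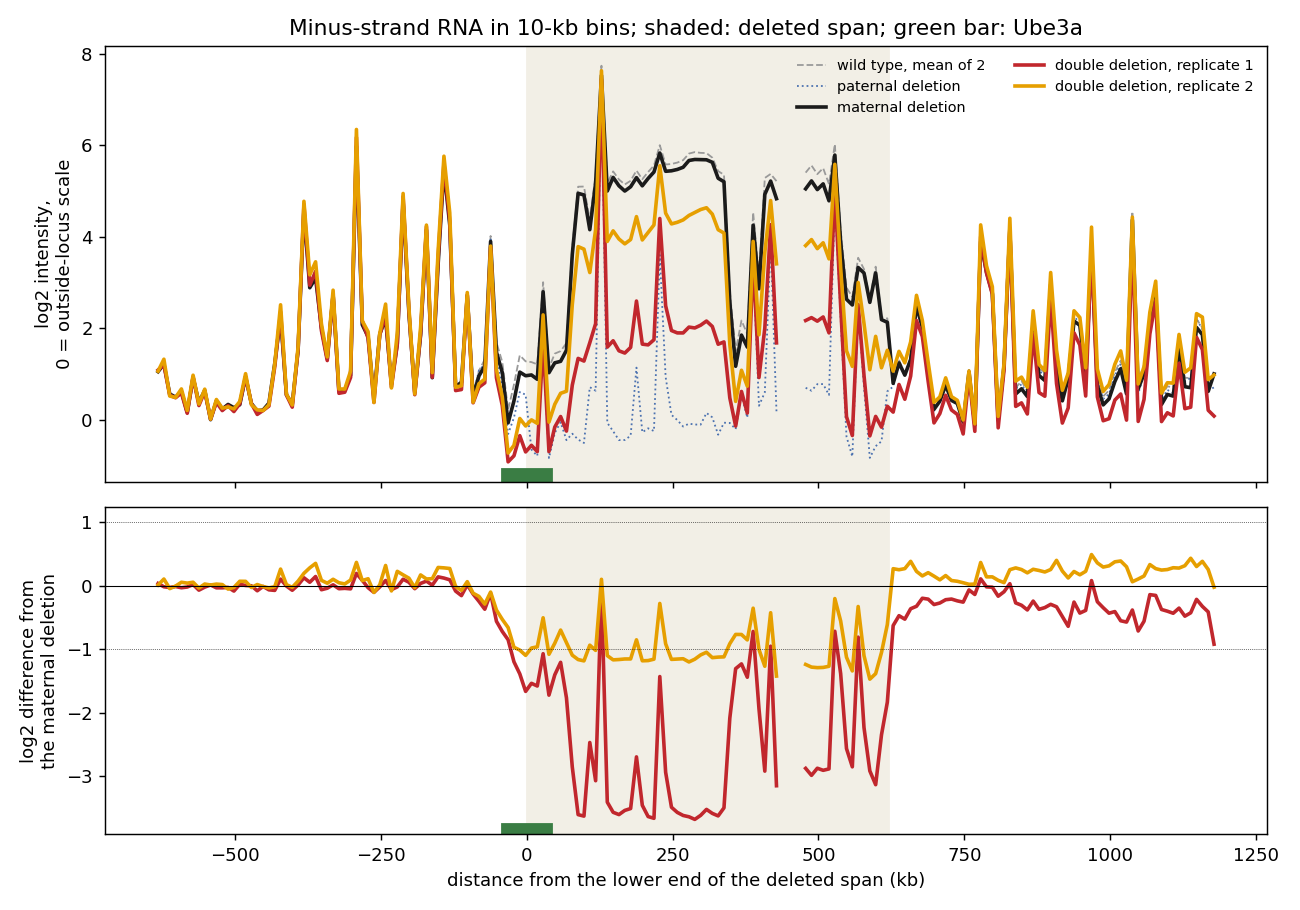
Minus-strand RNA in 10-kb bins against the distance from the lower end of the deleted span (kb). The upper panel gives the mean log2 intensity in each sample, and the lower panel gives each double deletion minus the maternal deletion, with dotted lines at 1 and -1. Within the shaded span replicate 1 lies below replicate 2 in all 58 bins, and outside it in 111 of 120.

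The probes show the same split by strand. Of the 7147 tested minus-strand probes of the span, 4333 (60.6%) were at least 1 log2 unit lower in both double deletions, against 5004 of all 48756 tested probes (10.3%). On the plus strand of the span 49 of 6230 probes (0.787%) met the same rule. Limma with 1 group called 0 of the 48756 probes, of which 6307 had an unadjusted p under 0.05.

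How much RNA remained was read on the linear scale, as the background-subtracted intensity of a probe in percent of that in the maternal deletion. The median over the minus-strand probes of the span was 8.50% in replicate 1, 41.4% in replicate 2 and 2.85% in the paternal deletion. Replicate 1 was thus the closer to the array that has no paternal copy, and replicate 2 kept more RNA than replicate 1. In 51 of the 58 minus-strand bins the order was replicate 2, replicate 1, paternal deletion. In the other 7 the paternal deletion was above replicate 1.

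**Figure D2:**
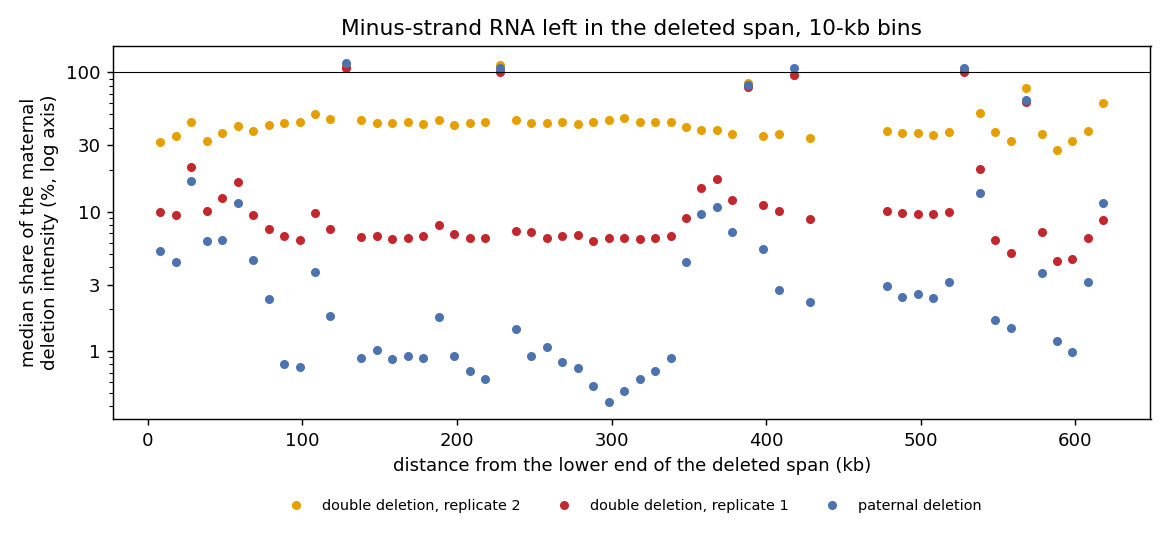
Minus-strand RNA left in the deleted span, as the median share of the maternal deletion's intensity in each 10-kb bin (%, log axis), against the distance from the lower end of the span (kb). In most bins the points of replicate 2 lie near 41.4% and those of replicate 1 near 8.50%, above the paternal deletion, and a few bins near 100% stand apart in all 3.

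Along the span the 5 segments seen in wild type behaved alike in direction and differed in depth. The segment nearest to Snrpn, of 77.7 kb, was at 2.68 in the maternal deletion, 0.23 in replicate 1 and 1.57 in replicate 2, which left 6.09% and 35.9% of the maternal signal. Next to it lies a bright plateau of 160 kb, where the levels were 4.64, 2.44 and 3.67 and the remaining shares 11.6% and 39.0%. The dim stretch of 40 kb that follows was at 1.77, 0.27 and 0.94, with 13.2% and 38.5% left. In all 3 segments both double deletions lay below the maternal deletion and the wild types.

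The bright plateau on the Ube3a side, 270 kb long, held the widest gap between the double deletions. It was at 5.28 in the maternal deletion, 2.06 in replicate 1 and 4.25 in replicate 2, against 5.54 and 5.34 in wild type and 0.36 in the paternal deletion. The remaining shares were 6.86% in replicate 1 and 44.7% in replicate 2. In the last 29.3 kb before Ube3a the levels were 1.30, -0.19 and 0.45, with 12.6% and 38.4% left. The share kept by replicate 2 thus ranged from 34.0 to 44.7% over all segments of the span, Ube3a included, and that of replicate 1 from 6.09 to 13.2%. None of these segments passed limma with the double deletions as 1 group (adjusted p from 0.182 to 0.323). As separate groups all of them passed, among 8 of the 24 regions called lower (33.3%) and 4 called higher (16.7%).

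The 10 bins of the locus with the largest negative difference, by the smaller of the replicates' differences, were all minus-strand bins of the span. Their differences from the maternal deletion ran from -3.15 to -2.86 in replicate 1 and from -1.47 to -1.24 in replicate 2. They lay on the Snrpn side, and the first of them was the bin at 67110001 to 67120000. It was at 2.56 in the maternal deletion, -0.36 in replicate 1 and 1.09 in replicate 2. Replicate 1 was close to the -0.84 of the paternal deletion there, and replicate 2 was between it and the maternal deletion.

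In 5 of the 58 minus-strand bins neither double deletion was lower by 1. They start at 66650001, 66910001, 66940001, 67050001 and 67090001. The brightest, at 66650001, was at 7.53 in the maternal deletion, 7.44 in replicate 1, 7.63 in replicate 2 and 7.36 in the paternal deletion, so these 4 arrays were nearly level. In all 5 the paternal deletion was also high, from 2.45 to 7.36, against a median of -0.07 over the other 53 bins. The plus strand of the same bins was bright too, at 1.15 to 4.58 in the maternal deletion against a median of 0.19 over the others. The ranges overlapped, since the paternal deletion reached 3.60 among the other 53 bins. The part of this remaining signal in the small differences was not tested.

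Ube3a-ATS opposite the deleted 3′ part of Ube3a was lower in both double deletions. Over 745 minus-strand probes the level was 1.29 in the maternal deletion, -0.22 in replicate 1 and 0.38 in replicate 2. The wild types were at 1.50 and 1.55 and the paternal deletion at -0.32. Replicate 1 was thus close to the array without a paternal copy, with 11% of the maternal signal left, and replicate 2 kept 34.0%. The difference was -1.21 ± 0.30 (SE, n = 2 against 1; 95% interval -2.13 to -0.29). It had an adjusted p of 0.182 in limma with 1 group (unadjusted 0.0242) and of 4.49e-15 with separate groups. Of the 745 probes, 378 were at least 1 lower in both replicates and 0 were at least 1 higher, against 10.3% and 0.447% of all tested probes. Over the minus strand of the whole span 60.6% of probes were at least 1 lower in both, so this is not particular to the stretch opposite Ube3a.

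Opposite the 5′ part of Ube3a, which lies outside the deletion and is read from both chromosomes, the double deletions went below the paternal deletion. The level was 0.54 in the maternal deletion, -0.64 in replicate 1 and -0.34 in replicate 2, against 0.29 in the paternal deletion and 0.82 and 0.90 in wild type. The shares left were 14% and 27.5%, whereas the paternal deletion had 67.9%. This was the region with the smallest unadjusted p of all 24 fitted (0.00765, adjusted 0.182 in limma with 1 group, 95% interval -1.56 to -0.51), and replicate 1 minus replicate 2 was -0.30 there. Of its 759 probes, 712 (93.8%) were below the maternal deletion in both replicates, against 39.4% of all tested probes.

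The difference thinned out below Ube3a. In 10-kb bins of the minus strand, the differences of replicates 1 and 2 from the maternal deletion were -0.72 and -0.53 from 66480001, -0.56 and -0.38 from 66470001, and -0.37 and -0.29 from 66450001. In the bin from 66460001, which was bright in every sample, they were -0.12 and -0.10. In the bin from 66400001 they were -0.08 and -0.01, and over the lower flank of 493.6 kb the levels were 1.26 in the maternal deletion, 1.26 in replicate 1 and 1.32 in replicate 2. So the lower minus-strand level ended within the 100 kb below Ube3a and did not reach the flank beyond. Over those 100 kb as a whole the levels were 1.81, 1.61 and 1.71, with an adjusted p of 0.426 in limma with 1 group. The sign of that regional difference turned when the arrays were scaled on all probes or by quantiles.

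Ube3a RNA from the paternal chromosome was higher in both double deletions. Over 735 plus-strand probes of the deleted 3′ part, the level was 0.76 in the maternal deletion, 1.39 in replicate 1 and 1.17 in replicate 2. The wild types, in which the maternal copy is present, were at 1.65 and 1.60, and the paternal deletion at 1.47. Both double deletions thus lay between the maternal deletion and the arrays with a maternal copy. With 1 or 2 arrays in a group, this order is not a test of separation. Replicate 1 was the higher one here and had less Ube3a-ATS, but that inverse order did not hold in the regions on either side. In the 5′ part replicate 1 was the lower on the minus strand (-0.64 against -0.34) and on the plus strand (1.65 against 1.94). Past Ube3a it was also the lower on both, at -0.19 against 0.45 and 0.27 against 0.32. A link between the strands was not tested.

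The difference was 0.51 ± 0.14 (SE, n = 2 against 1; 95% interval 0.10 to 0.93). It had an adjusted p of 0.182 in limma with 1 group (unadjusted 0.0288) and of 1.07e-07 with separate groups. On the linear scale the median probe was at 171% of the maternal deletion in replicate 1 and 152% in replicate 2, while the paternal deletion was at 194%. Of the 735 probes, 93 were at least 1 log2 unit higher in both replicates, against 218 of all 48756 tested probes (0.447%). With the 5′ part included, Ube3a held 101 of these 218 probes.

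**Figure D3:**
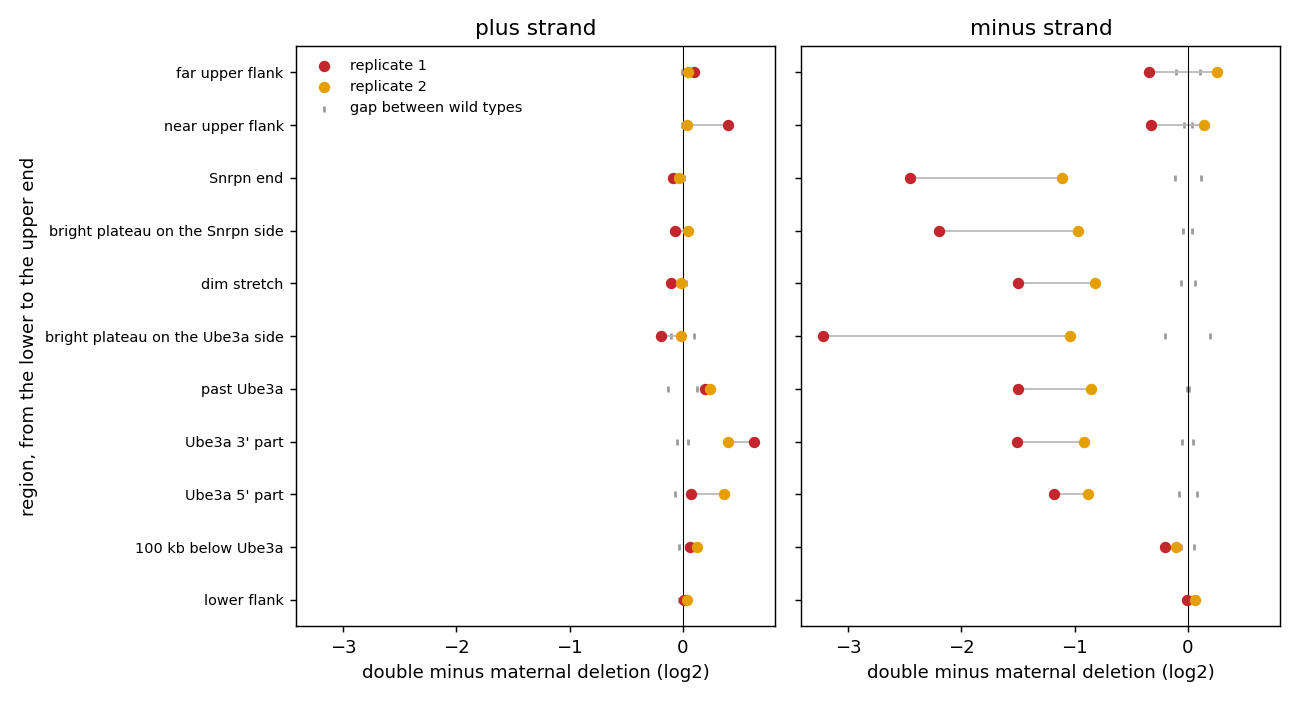
Double deletion minus maternal deletion (log2) for each region of the tiled locus and each strand, with replicate 1 and replicate 2 as points joined by a line and the gap between the wild types as grey ticks on both sides of 0. Minus-strand points of the deleted span reach from -0.82 to -3.22, and on the plus strand the Ube3a 3′ part is at 0.63 and 0.40.

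Within the 3′ part the difference was largest at the end of the gene. In the window from 66560001 to 66565000, the level was 1.21 in the maternal deletion, 2.86 in replicate 1 and 2.13 in replicate 2. The wild types were at 2.94 and 2.99 and the paternal deletion at 2.86, so replicate 1 was level with the paternal deletion. In the next window, from 66565001 to 66570000, the levels were 0.12, 1.20 and 0.93. The minus strand was lower in the double deletions in the same windows, with 1.64, -0.49 and 0.35 in the first and 0.40, -0.92 and -0.46 in the second. These were the only windows of 5 kb between 66470001 and 66600000 in which replicate 1 was higher by 1 or more on the plus strand, at 1.65 and 1.08, and replicate 2 was higher there by 0.93 and 0.81.

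Elsewhere in the 3′ part the plus-strand differences were smaller. The window from 66550001 to 66555000 was bright on both strands, at 7.73, 7.95 and 7.92 on the plus strand and 4.97, 5.09 and 5.47 on the minus strand. On its minus strand replicate 2 was thus 0.50 above the maternal deletion, whereas the window before it, from 66545001, had differences of -1.42 and -0.85. Between 66535001 and 66540000 replicate 1 was higher than the maternal deletion by 0.13 and replicate 2 was at -0.04. Past the end of Ube3a, plus-strand RNA over 29.3 kb was at 0.08, 0.27 and 0.32, against 0.55 and 0.42 in wild type. Its adjusted p was 0.311 with 1 group and 0.00615 with separate groups. From 66590001 to 66600000 the differences of both replicates lay between -0.13 and -0.02.

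The kept 5′ part of Ube3a separated the 2 double deletions. Plus-strand RNA over its 764 probes was at 1.58 in the maternal deletion, 1.65 in replicate 1 and 1.94 in replicate 2, against 0.98 and 0.91 in wild type. Its adjusted p was 0.556 with 1 group. The excess of replicate 2 was largest in the first 4 windows of 5 kb, from 66485001 to 66505000, a stretch picked after its values were seen. There replicate 2 was higher than the maternal deletion by 0.45 to 0.66 and replicate 1 differed by -0.09 to 0.03. In all 4 windows replicate 2 was above each of the other 5 total RNA arrays, by 0.42 to 0.66. In the next window, from 66505001 to 66510000, it was still the highest array, at 2.22 against 2.01 in replicate 1 and 1.93 in the maternal deletion.

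**Figure D4:**
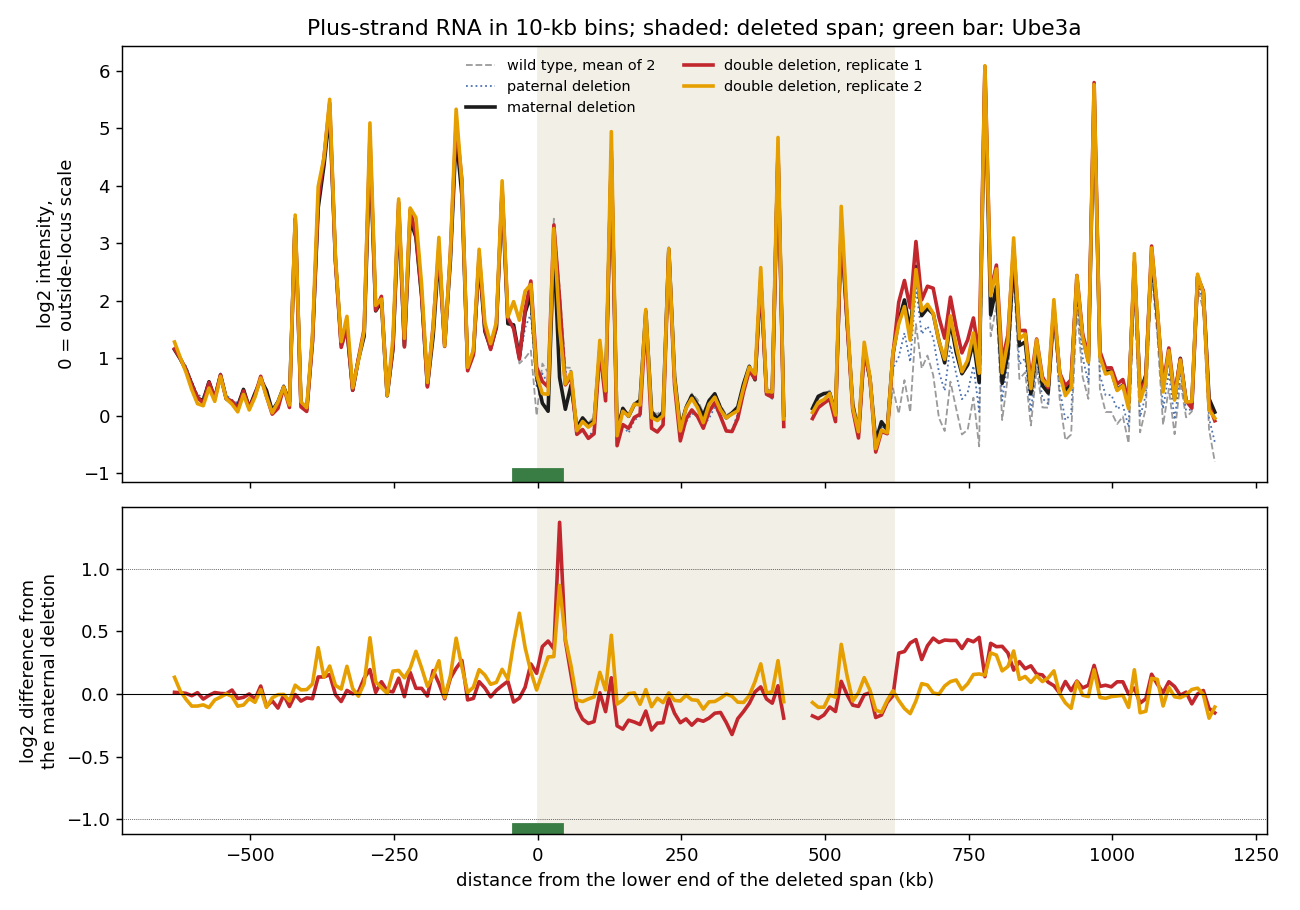
Plus-strand RNA in 10-kb bins against the distance from the lower end of the deleted span (kb), with the mean log2 intensity of each sample above and each double deletion minus the maternal deletion below. The highest differences, 1.37 in replicate 1 and 0.87 in replicate 2, are at the end of Ube3a, and just above the shaded span replicate 1 lies over replicate 2.

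The 10 bins with the largest positive difference, by the same rule, were all on the plus strand. The first was the bin from 66560001 at the end of Ube3a, with 1.37 in replicate 1 and 0.87 in replicate 2, and 4 of the 10 lay over the 3′ part of Ube3a or the first kilobases past it. Another 3 lay above the span, between 67310001 and 67350000, where replicate 1 was higher by 0.33 to 0.40 and replicate 2 by 0.22 to 0.33. The other 3 lay below Ube3a and were bright in every sample. The bin at 66380001, for example, was at 4.89 in the maternal deletion, 5.09 in replicate 1 and 5.33 in replicate 2.

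The plus strand of the span showed small differences outside Ube3a. Replicate 1 was below the maternal deletion in 45 of the 58 plus-strand bins of the span, with a median difference of -0.14, and replicate 2 in 34, with a median of -0.02. Over all 356 bins of both strands the medians were -0.06 and 0.02. Outside the span, replicates 1 and 2 were below it in 33 and 43 of 120 plus-strand bins and in 94 and 26 of 120 minus-strand bins. Averaged over the whole span, which includes the 3′ part of Ube3a, the level was 0.57 in the maternal deletion, 0.55 in replicate 1 and 0.63 in replicate 2, with a difference of 0.02 ± 0.09 (SE; 95% interval -0.27 to 0.31). Opposite the bright plateau on the Ube3a side it was at 0.47, 0.28 and 0.45, so that replicate 1, which had the lowest minus-strand level, was also the lower on the plus strand. That region had an adjusted p of 0.697 in limma with 1 group, and the paternal deletion was at 0.27. The sign of its difference turned when the arrays were scaled on all probes or by quantiles.

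Directly above the span, minus-strand RNA differed between the double deletions. The maternal deletion carries both chromosomes there, and the sources used here do not say whether the promoter deletions reach into this stretch. The first 1.5 kb held 30 tested probes, whose median difference from the maternal deletion was -2.48 in replicate 1 and -0.47 in replicate 2. In replicate 1, 20 of the 30 were lower by 2 or more, against 9.95% of all 48756 tested probes, and in replicate 2, 0 were, against 0.437%. Between 3 and 10 kb the medians over 103 probes were -0.52 and 0.28, and replicate 2 was above the maternal deletion at 93 of them.

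In a short stretch some probes were low in both replicates alike. Of the 161 tested minus-strand probes of these 10 kb, 3 were lower by 2 or more in both, against 0.381% of all tested probes, and all lie between 67149826 and 67150031, a stretch of 206 bases. The probe at 67149987 to 67150031 was at 2.45 in the maternal deletion, -1.21 in replicate 1 and -1.11 in replicate 2. The wild types were at 2.85 and 2.74 and the paternal deletion, whose deleted span as placed here ends below this probe, at 0.98. Both double deletions thus lay far below every other total RNA array. The overlapping probes at 67149826 and 67149830 were at 0.82 and 1.05 in the maternal deletion, at -1.44 each in replicate 1 and at -1.35 and -1.30 in replicate 2. The other 2 tested probes of the stretch were lower by less and stayed bright. The one at 67149936 was at 6.33 in the maternal deletion, 5.49 in replicate 1 and 5.32 in replicate 2, and the one at 67149962 at 5.63, 4.77 and 4.51. Another 23 probes were lower by 2 or more in replicate 1 alone and 0 in replicate 2 alone. The limit of 2 was chosen after the values were seen.

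**Figure D5:**
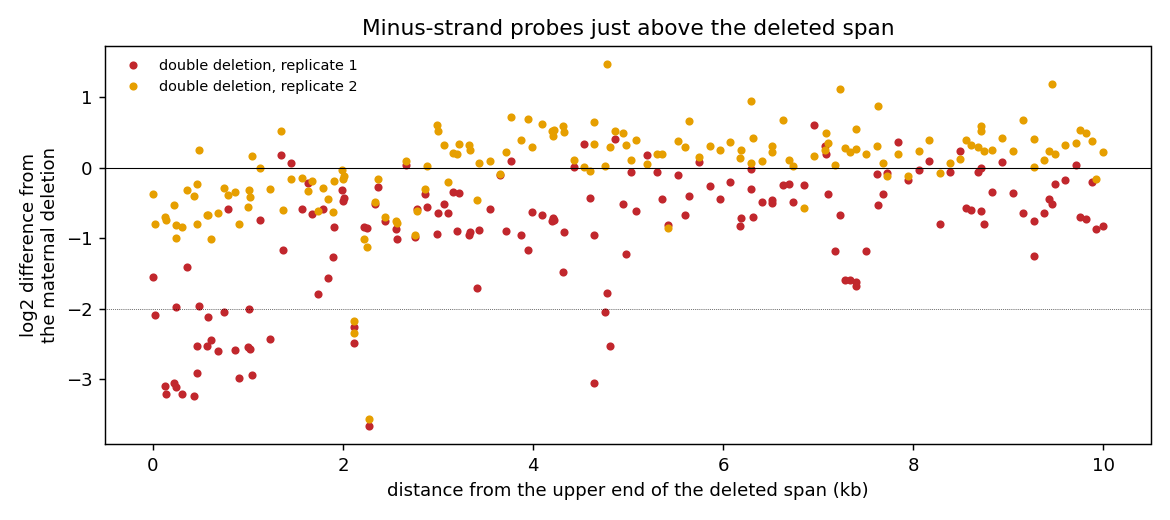
Minus-strand probes in the first 10 kb above the deleted span, as each double deletion minus the maternal deletion (log2) against the distance from the upper end of the span (kb), with a dotted line at -2. Replicate 1 is low over the first 1.5 kb, both replicates are low together at 3 probes, and beyond 3 kb the medians are -0.52 in replicate 1 and 0.28 in replicate 2.

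Farther up, the minus strand of the double deletions lay on opposite sides of the maternal deletion. Over the 56 bins above the span, replicate 1 was below it and replicate 2 above it in 52, with median differences of -0.33 and 0.25. The gap between the wild types was at most 0.19 in these bins. Over the far upper flank of 400.6 kb the levels were 1.34 in the maternal deletion, 1.0 in replicate 1 and 1.59 in replicate 2, against 1.55 and 1.45 in wild type. Their mean differed from the maternal deletion by -0.04 ± 0.30 (SE; 95% interval -0.98 to 0.89). On the lower flank, by contrast, replicate 1 was below and replicate 2 above in 16 of 49 minus-strand bins, with medians of -0.02 and 0.05. Over all 356 bins of both strands the medians were -0.06 and 0.02. Replicate 1 was below replicate 2 in 111 of the 120 minus-strand bins outside the span.

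The plus strand just above the span, which was far above wild type in all 3 samples, split the replicates in the opposite sense. Over its 15 bins replicate 1 was higher than the maternal deletion by 0.27 to 0.45, and replicate 2 was between -0.16 and 0.16. On the linear scale the median probe of that flank was at 146% of the maternal deletion in replicate 1 and at 104% in replicate 2. The difference of the group was 0.22 ± 0.19 (SE), with an adjusted p of 0.586 in limma with 1 group and 0.00615 with separate groups. On the far upper flank the plus strand was at 1.19, 1.29 and 1.24, with an adjusted p of 0.697 in limma with 1 group.

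The probes elsewhere in the genome set the scale, so their median difference of -0.03 in both replicates is largely fixed by it. Of 2324 tested probes elsewhere in the genome, 35 (1.51%) were at least 1 log2 unit lower in both double deletions and 5 (0.215%) at least 1 higher. A probe could be tested through the single array of the maternal deletion, or else through both double deletions. Both differences also share that single array, so the 2 counts are not a like comparison. The 2 lists of 10 that follow leave out the probes of 1 chromosome, so they do not hold all 5 of the higher probes. In the 10 listed probes with the largest negative difference, the mean of the wild types was within 0.31 of the mean of the double deletions. It was 1.66 to 3.48 away from the maternal deletion. The first of them, on chromosome 7 at 85733284 to 85733343, was at 2.09 in the maternal deletion, -1.53 and -1.47 in the double deletions and -1.47 and -1.30 in wild type. There the array of the maternal deletion was the one that stood apart. Among the 10 listed with the largest positive difference, of 0.74 to 1.19 in the closer replicate, 4 lay on chromosome 16 between 32607451 and 32628026. At 7 of these 10 the maternal deletion was closer to the wild-type mean than the mean of the double deletions was. The files pair none of these probes with a gene.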

How the data were processed

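RNA was read as Cy5-labelled first-strand cDNA on 8 strand-specific Agilent arrays of 1 slide. The members, regions and lists were chosen with earlier results of these data known. The deposited scanner files hold unnormalized intensity values of each spot on build mm9. Feature Extraction is version 10.7.3.1 per the file headers and 10.9 per the submitters' processing notes. The labels point to the red median. A value table deposited by the authors, also intensity, holds the red values of locus probes alone times 1 factor per array (0.859 to 1.02 on the total RNA arrays, found from the values). It served as an alternative, scaled on the scanner's outside probes times that factor. The medians of its columns were 104 for the maternal deletion and 76.9 and 105.79 for the double deletions.

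Control spots and 48 outlier-marked spots of the 3 arrays were left out after normexp correction (offset 50, limma 3.58.1, R 4.3.3), spots of a probe were averaged, and arrays were scaled as given above, leaving out a margin of 100 kb around the locus. A probe entered the tests when all arrays of 1 compared group, or of both, had it well above background. For the maternal deletion this is 1 array. Regions, bins with at least 3 probes and probes were fitted with limma (lmFit, eBayes, two-sided, Benjamini-Hochberg over all 24 regions, 356 bins or 48756 probes, threshold 0.05) on the 6 total RNA arrays as 4 groups. The spread comes from the wild types and double deletions, and p-values reflect that spread alone, which may be technical. Between the double deletions it also holds any difference between their promoter deletions, which the labels give as unlike. Normexp and the offset understate differences of dim probes. Saturated spots numbered at most 354 on the 3 arrays. The number of arrays limits the precision, and all share 1 slide and scan, so no batch could be fitted. Fits were tested on simulated data.

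Named features were chosen by rule: the regions of both strands, the 10 bins and 10 outside probes with the largest differences on each side by the smaller replicate difference, and minus-strand bins of the span that were not lower by 1 in either replicate. Its parts by gene name or marker could not be applied, and the lists of outside probes leave out 1 chromosome. Promoter sequences come from RefSeq (GRCm38.p6), where the 3 symbols looked up all matched. Alternatives covered the scale, background, probe filter, value table, grouping, bin width and left-out replicates. The median over probes and the removal of saturated probes were added after seeing the data.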

Additional observations from a re-analysis of the deposited data

How the results depend on the processing

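The 3 regional differences kept their direction under every alternative run: -2.43 to -0.99 for minus-strand RNA of the deleted span, -2.08 to -0.78 opposite the Ube3a 3′ part and 0.40 to 0.95 for the plus strand of that part. As 1 group they passed the adjusted threshold in limma only opposite the Ube3a 3′ part under quantile normalization (-0.97). With the double deletions as separate groups all 3 passed, at -1.71, -1.21 and 0.51. All 3 passed also when 1 double deletion was left out, where the ranges were -2.43 to -0.99, -1.51 to -0.91 and 0.40 to 0.63. The lone sample of each group is then assumed to vary like the wild types. The differences use no wild-type value, and both groupings weight the double deletions equally. Neither regrouping nor leaving out a wild type could therefore move them, so these settings do not test their direction. Leaving out a wild type changed none of the 3 differences, and the adjusted p was then 0.337, 0.337 and 0.382. Bins called rose from 0 to 96 with separate groups, and with a replicate left out they ranged from 0 to 126. Probes called rose from 0 to 9479 with separate groups, to 4212 with the scale on all probes and to 282 with all 8 samples fitted, and with a replicate left out they ranged from 0 to 11008. No paired analysis was possible because the maternal deletion has 1 sample.

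Relative to the scale used, the scale on all probes shifted all differences by 0.43, quantile normalization shifted their median by 0.18 and the median of outside probes shifted all by 0.095. Regions that had not passed the test changed sign under some settings. On the scale of all probes these were the minus strand 100 kb below Ube3a (0.28) and of the near (0.34) and far (0.39) upper flank, and the plus strand of the plateaus on the Ube3a (0.33) and Snrpn (0.42) side, the dim stretch (0.38) and the Snrpn end (0.37). Under quantile normalization the same 7, in that order, were at 0.055, 0.10, 0.15, 0.12, 0.21, 0.14 and 0.13. With the median of outside probes the near and far upper flank minus were at 0.0030 and 0.052, and the dim stretch, Snrpn-side plateau and Snrpn end plus at 0.038, 0.083 and 0.032. Lower flank plus, lower flank minus and the plus strand of the span were at -0.037, -0.032 and -0.042 with outside probes well above background as scale and at -0.012, -0.024 and -0.061 with background-subtracted signal. In the authors' value table lower flank plus and minus were at -0.059 and -0.052 and 100 kb below Ube3a plus at -0.028. With probes well above background on all 3 arrays the dim stretch and Snrpn-side plateau plus were at 0.013 and 0.0063. With the median over probes, lower flank plus and span plus were at -0.017 and -0.0044. With a double deletion left out, near and far upper flank minus ranged from -0.33 to 0.14 and from -0.34 to 0.26, Snrpn-side plateau plus from -0.073 to 0.049, lower flank minus from -0.0028 to 0.063 and span plus from -0.023 to 0.064.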
